A study of Mus musculus with 18 samples.

Results

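The cytosolic chaperonin CCT (also called TRiC) is a barrel of stacked rings, each built from 8 different subunits, and the messages of those 8 subunits are the subject here: Tcp1, Cct2, Cct3, Cct4, Cct5, Cct6a, Cct7 and Cct8. They were taken by gene symbol from the deposited expression table of 19862 genes, which held all 8, and all 8 passed the filter on low values. The RNA came from mouse osteosarcoma cells, a bone tumour line of mixed strain background labelled postnatal day 299, derived from mice with conditional knockout of p53 and Rb. The cells carry floxed Prmt1 alleles (Prmt1 f/f) and a stably expressed CreER, a tamoxifen-activated recombinase. Prmt1 encodes the main protein arginine methyltransferase of mammalian cells.

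The Prmt1 knockout cells (labelled Prmt1-/-) were the same CreER line treated with 4OHT, the active form of tamoxifen, and the control cells (labelled wild type) were treated with the ethanol vehicle. Each was sampled as Total cytoplasmic RNA, as Light polysome RNA pooled from gradient fractions with fewer than 3 ribosomes per message, and as Heavy polysome RNA pooled from fractions with more than 3. With 3 libraries in each of the 6 groups there were 18 libraries, of 32.3 to 57.9 M reads. No group without floxed alleles received 4OHT, so the drug and the loss of Prmt1 cannot be told apart. The labels name 1 line and do not say that replicates were separate cultures, so a p-value here measures only the spread between these libraries.

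CCT folds newly made proteins inside a closed chamber, in a cycle driven by ATP, and its obligate clients are actins and tubulins, along with WD40-repeat proteins such as G protein beta subunits, CDC20 and mLST8. The subunits are paralogs that take fixed positions in each ring and have different client contacts. In yeast and bovine CCT the subunits encoded by Tcp1, Cct2, Cct4 and Cct5 form the side of the ring that binds ATP most tightly, and those of Cct3, Cct6a, Cct7 and Cct8 form the opposite side. Prefoldin hands over unfolded actin and tubulin, and phosducin-like proteins act on CCT as cofactors. A message in active translation carries several ribosomes and sediments in the Heavy fractions, whereas a message with few ribosomes sediments in the Light ones.

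The 8 genes lie on 8 different chromosomes, so no 2 of them are neighbours. On the plus strand of GRCm38 (mm10), Tcp1 (gene identifier 21454) lies at chr17:12916329-12925067, Cct3 (12462) at chr3:88297135-88321766, Cct4 (12464) at chr11:22990593-23003336, Cct6a (12466) at chr5:129787356-129846443 and Cct7 (12468) at chr6:85451505-85468477. On the minus strand lie Cct2 (12461) at chr10:117050997-117063852, Cct5 (12465) at chr15:31590800-31601846 and Cct8 (12469) at chr16:87483325-87495869. Of the 8, 7 had a promoter in the RefSeq table for GRCm38.p6. Shown here are the 120 bases upstream of the RefSeq start of Cct2 and Cct7, the 2 members whose Heavy-to-Light ratio passed a test of change, and of Tcp1 and Cct8, which did not pass the test in Light RNA. Each is written 5′ to 3′ on the gene's own strand. Capitals mark CCAAT, the core bound by NF-Y, and CCGGAA, an ETS-type core, in either orientation (ATTGG and TTCCGG are their reverse complements).
Cct2, chr10:117063853-117063972, minus strand: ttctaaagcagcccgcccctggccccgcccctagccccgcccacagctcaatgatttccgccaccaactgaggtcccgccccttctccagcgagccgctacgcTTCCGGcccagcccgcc
Cct7, chr6:85451385-85451504, plus strand: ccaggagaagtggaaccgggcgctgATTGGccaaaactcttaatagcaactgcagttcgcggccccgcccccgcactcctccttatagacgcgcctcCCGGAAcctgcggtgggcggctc
Tcp1, chr17:12916209-12916328, plus strand: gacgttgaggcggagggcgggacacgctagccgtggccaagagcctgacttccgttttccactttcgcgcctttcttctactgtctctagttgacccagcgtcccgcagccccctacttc
Cct8, chr16:87495870-87495989, minus strand: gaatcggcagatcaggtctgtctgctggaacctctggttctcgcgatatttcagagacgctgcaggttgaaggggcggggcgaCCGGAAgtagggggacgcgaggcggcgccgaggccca

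In these 120-base windows, searched on both strands, CCGGAA occurred in 3 of the 7 members (Cct2, Cct7 and Cct8), against 8.33% of 27025 RefSeq promoters. CCAAT occurred in 3 (Cct3, Cct6a and Cct7), against 22.1% of all promoters. The GC box GGGCGG was found in 6 of 7, against 26.9%. The heat-shock element pieces GAANNTTC and TTCNNGAA were present in 0 and 1 members (Cct5), against 3.28% and 3.38% of all promoters. No 2 motifs shared a base in the 4 windows printed. These matches describe letters in a window and do not show that a factor binds there.

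Prmt1 was read first as a check of the labels. In Heavy RNA it had 64.4, 121 and 145 CPM (counts per 1000000 reads) in knockout cells, against 412, 378 and 370.1 CPM in control cells. In Total RNA it had 147, 176 and 173 CPM in knockout cells, against 256, 277 and 285 CPM in control cells. The log2 change was -1.88 in Heavy RNA and -0.72 in Total RNA (limma adjusted p = 7.87e-06 and 0.0202), and both sets of libraries were fully separated. The Total call was lost without knockout Total library 1, control Total library 2 or control Total library 3 (adjusted p of 0.0562 to 0.0809). In Light RNA the 166, 229 and 235 CPM of knockout cells overlapped the 255, 243 and 218 CPM of control cells. The sources used here do not say which exons the recombinase removes, and reads from any exon left behind count as Prmt1.

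The knockout libraries with the number 1 deviated most from the other libraries of their fraction, with root mean square deviations from the group mean, on the log2 scale, of 0.349 in Heavy, 0.239 in Light and 0.196 in Total RNA, against 0.0907 to 0.251 in the other 15. They also had the lowest Prmt1 of the knockout libraries in each fraction (64.4 CPM in Heavy, 166 in Light and 147 in Total RNA). Whether the deviation and the Prmt1 level go together was not tested. Of the 8 osteoblast markers, 7 were tested, and their summed level was 4540 to 13138 CPM over the knockout libraries and 2319 to 6108 CPM over the control libraries, with Ibsp at 0 in 17 of 18 libraries and Bglap under 0.3 CPM. Most of this sum was Col1a1, Col1a2 and Sparc. In Total RNA the log2 change was positive for 5 of the 7 and negative for 2, Runx2 and Sp7. Runx2 averaged 47.5 CPM in knockout and 77.6 CPM in control cells, and Sp7 averaged 1.47 and 5.46 CPM. Markers of other cell types were low but higher in knockout cells. The 6 macrophage markers summed to 11.6 to 22.4 CPM in knockout libraries and 6.62 to 10.1 in control libraries, with Ptprc and Adgre1 at 0.0721 CPM or less. The 5 epithelial markers summed to 5.9 to 13.1 CPM in knockout libraries and 0.634 to 1.38 in control libraries, with Epcam at 0.144 CPM or less. The 5 endothelial markers summed to 1.79 to 4.06 CPM in knockout libraries and 0.181 to 0.763 in control libraries. Their part in the results was not tested.

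All 8 CCT messages were abundant, with 5227 to 65317 reads in a library, and they moved together over the libraries. Summed over the 8, they made 3636, 4031 and 4002 CPM of Total RNA in knockout cells and 4753, 4450 and 4581 CPM in control cells. In Light RNA the sums were 2766, 2321 and 2441 CPM in knockout cells and 1831, 1668 and 1780.2 CPM in control cells. In Heavy RNA they were 6784, 5645 and 4278 CPM in knockout cells, against 5737, 5866 and 6663 CPM in control cells. The knockout sums thus lay below control in Total RNA, above control in Light RNA and on both sides of control in Heavy RNA. These are shares of the RNA sequenced, and in bulk RNA fewer cells of a type and less RNA per cell cannot be told apart.

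**Figure D1:**
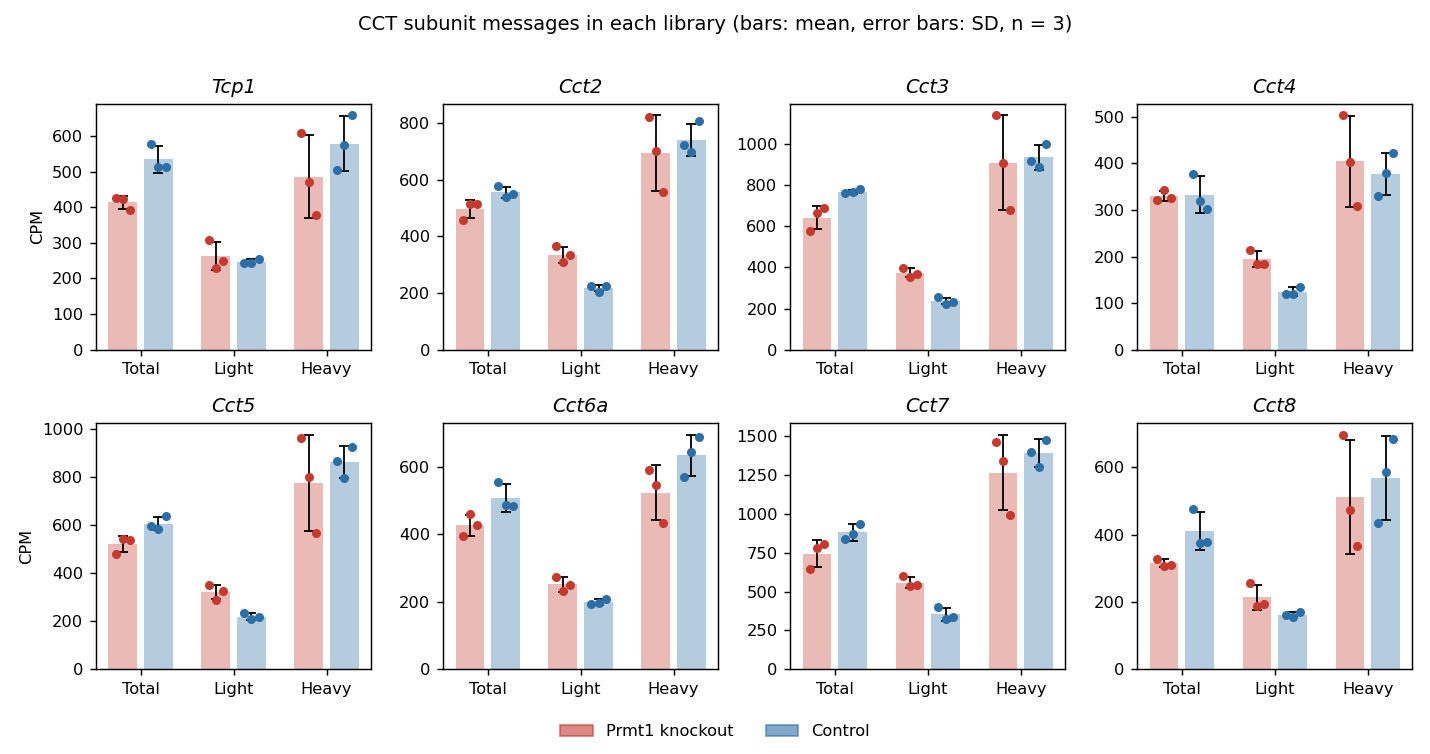
CPM of each CCT message in Total, Light and Heavy RNA, with a bar for the group mean, error bars for the SD (n = 3) and a point for each library; Prmt1 knockout is red and control is blue. In Light RNA the knockout points lie above all control points for 7 of 8 messages, and in Heavy RNA the 2 sets overlap for all 8.

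Per kilobase of coding sequence, Cct7, the eta subunit message, was the most abundant of the 7 members with a coding length (1605 to 1668 nt) in all 6 groups. In Total RNA it had 456 ± 52.8 CPM per kb in knockout cells and 539.5 ± 32.2 in control cells (SD, n = 3). Cct3 came second in Total RNA, with 393 ± 34.8 in knockout cells and 469 ± 6.18 in control cells. The libraries of Cct7 and Cct3 overlapped in Total and Heavy RNA of knockout cells. The lowest place was held by Cct8 in knockout cells (192 ± 7.52 CPM per kb), though it overlapped Cct4 (204 ± 6.74). In control cells the lowest was Cct4 (206 ± 24.1), overlapping Cct8 (249 ± 34.5). Cct5, Cct2 and Tcp1 lay between them in that order, and of these Cct5 and Cct2 overlapped in knockout cells while Cct2 and Tcp1 overlapped in control cells. The highest member exceeded the lowest 2.38-fold in knockout and 2.62-fold in control Total RNA, 2.84-fold and 2.81-fold in Light RNA, and 3.10-fold and 3.66-fold in Heavy RNA. Cct6a had no coding length in the annotation used and was left out of this order.

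In Total RNA, none of the 8 messages passed the test between knockout and control cells, although all 8 had lower means in knockout cells. That of Cct4 turned higher after quantile normalization, without the knockout libraries numbered 1 and in 3 of the fits that left out 1 library. The log2 changes ran from -0.37 to -0.01 with a median of -0.25, against a median of -0.01 over the genes with at least 1 CPM. Over all 17515 genes tested, 26.4% were called in this comparison and 10.3% were called lower (limma with Benjamini-Hochberg adjustment at 0.05). The knockout libraries lay wholly below the control libraries for 7 of the 8 messages, a pattern seen in 20.2% of all genes.

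Tcp1, the alpha subunit message that gave the complex its first name, had 425, 423 and 392 CPM in Total RNA of knockout cells and 579, 513 and 513 CPM in control cells. Its 2 sets did not overlap, and its log2 change was -0.37 (SE 0.15, adjusted p = 0.088), the one member with an unadjusted p under 0.05. Cct8, the theta subunit, had 329, 306 and 310.2 CPM in knockout cells and 475, 375 and 378 CPM in control cells, for a log2 change of -0.37 (SE 0.20, adjusted p = 0.201). Control library 1 held the highest value of both messages. Cct4, the delta subunit, was the member whose libraries overlapped, with 322, 343 and 326 CPM in knockout cells and 377, 319 and 303 CPM in control cells (log2 change -0.01, SE 0.15).

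Of the other 5 messages in Total RNA, Cct3, the gamma subunit, averaged 642 ± 57 CPM in knockout cells and 767 ± 10.1 CPM in control cells (SD, n = 3). Cct7 averaged 744 ± 86.1 CPM in knockout cells and 880.5 ± 52.5 CPM in control cells. The adjusted p of Cct2, Cct3, Cct5, Cct6a and Cct7 ran from 0.146 to 0.376. With voom on the recovered reads 1 member was called lower, and with only the 6 Total libraries in the fit 3 were.

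In Light RNA, 6 of the 8 messages rose in knockout cells: Cct2, Cct4 and Cct5 from the side of the ring that binds ATP tightly, and Cct3, Cct6a and Cct7 from the opposite side. The 2 that did not pass were Tcp1 and Cct8. Over all genes tested, 26.8% were called higher in Light RNA. The median log2 change of the 8 was 0.58, against 0.14 over genes with at least 1 CPM. Knockout libraries lay wholly above control for 7 of the 8, as they did for 33.3% of all genes.

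Cct7 had 602, 534 and 539 CPM in Light RNA of knockout cells and 400.5, 321 and 338 CPM in control cells. The mean was 1.58-fold higher in knockout cells, with a log2 change of 0.66 (SE 0.14, adjusted p = 0.00126). Cct3 had 397, 355 and 367 CPM in knockout cells and 255, 223 and 231 CPM in control cells, a log2 change of 0.66 (SE 0.14, adjusted p = 0.00172). In both, the lowest knockout library exceeded the highest control library. Cct4 had 214, 185 and 185 CPM in knockout cells and 120.2, 119 and 135 CPM in control cells (log2 change 0.64, SE 0.15, adjusted p = 0.00312). Cct2, the beta subunit, had 365, 309 and 333 CPM in knockout cells and 223, 205 and 225 CPM in control cells, and rose by 0.62 on the log2 scale (SE 0.12, adjusted p = 0.000879). It had the lowest p of the 8.

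Cct5, the epsilon subunit, had 349.8, 289 and 324 CPM in Light RNA of knockout cells and 234, 207 and 216 CPM in control cells (log2 change 0.55, SE 0.15, adjusted p = 0.00785). Cct6a, the zeta subunit, had 274, 231 and 249 CPM in knockout cells and 194, 195 and 209 CPM in control cells. Its log2 change of 0.33 (SE 0.12, adjusted p = 0.0408) was the smallest of those called, and it lost its call in the fits with a replicate block (adjusted p = 0.0528 with the block within genotype) and in 8 of 18 fits that left out 1 library (control Light 1, 2 or 3, knockout Light 1 or 3, control Total 2, knockout Total 3 or control Heavy 2). Cct8 had 257, 189 and 194 CPM in knockout cells and 162, 154 and 171 CPM in control cells. The 2 sets did not overlap, but the knockout spread was wide and the log2 change of 0.38 (SE 0.20, adjusted p = 0.157) did not pass.

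Tcp1 was the one message whose Light libraries overlapped, with 308, 230.0 and 250.4 CPM in knockout cells and 242, 243 and 255 CPM in control cells. Its log2 change was 0.08 (SE 0.15, adjusted p = 0.723), and its sign turned negative with voom scaling (-0.15), with the coding-length trend removed and without knockout Light library 1 or all knockout libraries numbered 1. Of the genes called in Light RNA, 67.9% were higher as deposited, against 47.3% after quantile normalization and 47.4% with voom and median-of-ratios scaling. The median log2 change of genes with at least 1 CPM in Light RNA, 0.14 as deposited, was -0.02 and -0.06 under those scalings. Cct2, Cct3, Cct4 and Cct7 remained called under both of those scalings, with log2 changes of 0.60 to 0.69 after quantile normalization and 0.40 to 0.44 with voom. Cct6a lost its call under both scalings, and Cct5 (0.32) with voom.

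**Figure D2:**
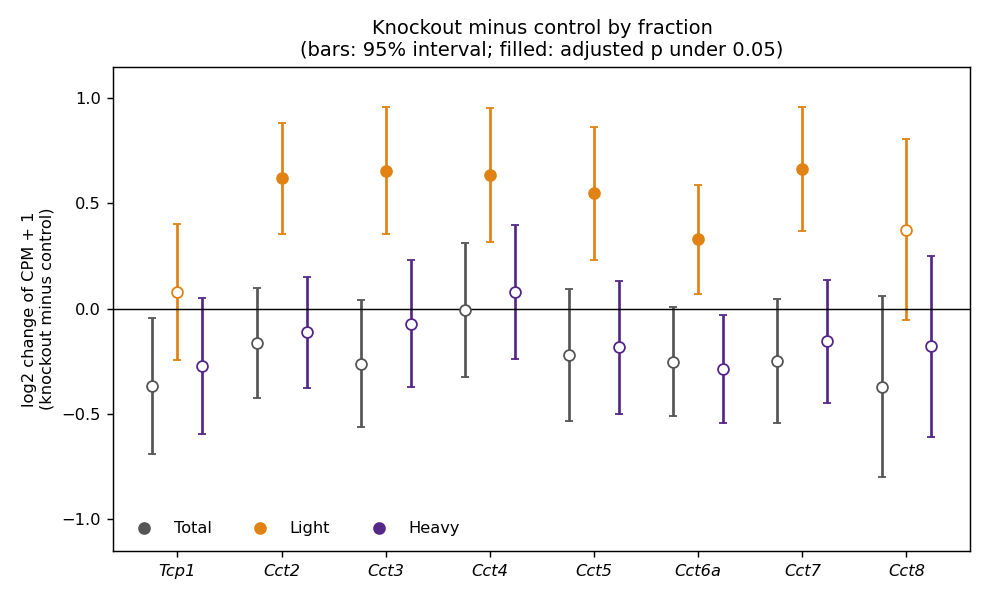
Log2 change of CPM + 1, knockout minus control, of each CCT message in Total, Light and Heavy RNA, with 95% intervals; filled points passed an adjusted p of 0.05. The 6 filled points are all in Light RNA, from 0.33 for Cct6a to 0.66 for Cct7.

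In Heavy RNA none of the 8 messages passed the test, and the knockout and control libraries of all 8 overlapped. The log2 changes ran from -0.29 for Cct6a to 0.08 for Cct4, with a median of -0.17 against 0.05 over genes with at least 1 CPM. The sign of Cct4 turned with voom, without the knockout libraries numbered 1, and without control Heavy library 1 or knockout Heavy library 1. That of Cct7 turned after quantile normalization. Without knockout Heavy library 3 the signs of Cct2, Cct3, Cct5, Cct7 and Cct8 turned. Over all genes tested, 28.9% were called in Heavy RNA. Cct6a had 591, 546 and 432 CPM in knockout cells and 569.5, 643 and 689.8 CPM in control cells (adjusted p = 0.0921), the one member with an unadjusted p under 0.05, and with voom 2 members were called lower.

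The knockout Heavy libraries were widely spread for every member, with number 1 the highest and number 3 the lowest in all 8. Cct3 had 1138, 908 and 677 CPM in Heavy RNA of knockout cells, against 915, 886 and 1001 CPM in control cells. Cct7 had 1461, 1342 and 994 CPM in knockout cells and 1397, 1303 and 1477 CPM in control cells. Cct4 had 503, 404 and 308 CPM in knockout cells and 330.3, 379.5 and 422 CPM in control cells. For Cct2, Cct3, Cct4, Cct5 and Cct8 the control range lay inside the knockout range. Without knockout Heavy library 1, 2 members were called lower, and without all 3 knockout libraries numbered 1, 3 were. Over all genes, 3951 to 5593 were called in either direction in the fits that left out 1 library, against 5061 with all libraries.

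Every CCT message was more abundant in Heavy than in Light RNA, in knockout cells as in control cells. In knockout cells all 8 were called higher in Heavy RNA, with log2 differences of 0.87 (Tcp1) to 1.25 (Cct3) and a median of 1.10, where 16.8% of all genes were called higher. In control cells all 8 were also called, with differences of 1.22 (Tcp1) to 1.98 (Cct3 and Cct7) and a median of 1.77, where 23.6% of all genes were called higher. The highest adjusted p among the 16 tests was 0.000202, for Tcp1 in knockout cells. Among the genes tested, the members ranked between the 97.3 and 100 percentiles (rounded) of this difference in knockout cells, and between the 95.2 and 99.9 percentiles in control cells. This ranking took in genes under 1 CPM, since 11602 of the 17515 tested averaged at least 1 CPM. Genes near 0 CPM can differ little on the log2(CPM + 1) scale, and a ranking without them was not made. In CPM, Cct7 averaged 1266 ± 243 in Heavy and 558 ± 37.9 in Light RNA of knockout cells, and 1393 ± 87.5 in Heavy and 353 ± 41.7 in Light RNA of control cells (SD, n = 3).

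**Figure D3:**
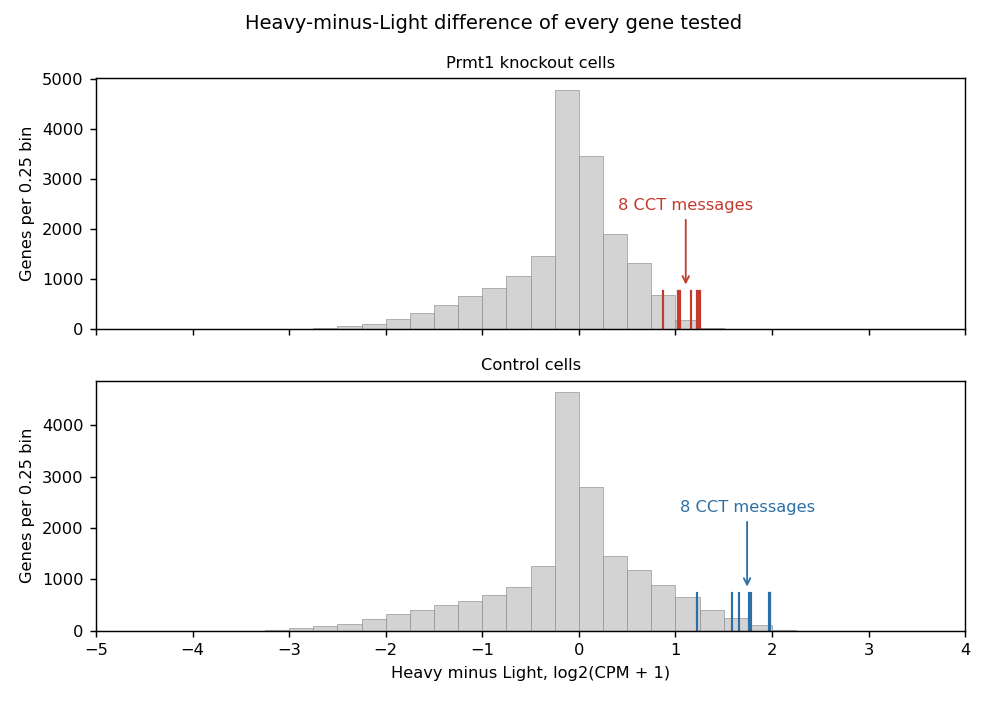
Histograms of the Heavy-minus-Light difference, in log2(CPM + 1), over all 17515 genes tested, in knockout cells above and control cells below, with a vertical tick for each CCT message. The ticks sit in the right tail in both, between 0.87 and 1.25 in knockout cells and between 1.22 and 1.98 in control cells.

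The Heavy-minus-Light difference was smaller in knockout than in control cells for all 8 messages, by a median of -0.67 on the log2 scale, against -0.06 over genes with at least 1 CPM. The test of this change passed for Cct2 (-0.73, SE 0.18, adjusted p = 0.0365) and Cct7 (-0.82, SE 0.20, adjusted p = 0.0365), 2 of 8 where 2.52% of all genes were called lower. Cct3 (-0.73), Cct5 (-0.73) and Cct6a (-0.61) came next, with adjusted p of 0.0666 to 0.0765. Cct4 and Cct8 (both -0.55) and Tcp1 (-0.35) had adjusted p of 0.194, 0.389 and 0.503. These values rest on the Light and Heavy changes already given and are no separate evidence. The highest differences over all genes were also smaller in knockout cells. Their top histogram bin started at 1.25, against 2 in control cells. In knockout cells 16.8% of all genes were called higher in Heavy than in Light RNA, against 23.6% in control cells. The median of the 19 actins and tubulins was 0.82 against 1.43, and that of the 6 prefoldin subunits was -1.26 against -1.58. Whether the members changed beyond this narrowing was not tested.

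Heavy and Light libraries of the same number deviated together within a genotype, so the difference can be read pair by pair. For Cct7 the 3 differences were 1.28, 1.33 and 0.88 in knockout cells and 1.80, 2.02 and 2.13 in control cells. For Cct2 they were 1.17, 1.18 and 0.74 in knockout cells and 1.69, 1.77 and 1.84 in control cells. Number 3 was the lowest knockout pair of all 8 messages. For Tcp1 the differences were 0.98, 1.03 and 0.59 in knockout cells and 1.06, 1.24 and 1.37 in control cells, close to touching. For Cct8 they were 1.43, 1.32 and 0.92 in knockout cells and 1.42, 1.92 and 1.99 in control cells, the only member whose 2 sets overlapped. How many of all genes separated in this way was not counted, so no share stands beside this pattern.

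The calls of Cct2 and Cct7 were close to the threshold. A fit with a block for each numbered pair, on the Heavy and Light libraries alone, gave adjusted p of 0.0742 for Cct2 and 0.0718 for Cct7. Both calls were also lost after quantile normalization (adjusted p = 0.1298 for Cct2 and 0.138 for Cct7), with voom (0.139 for both), with only the libraries compared and with the coding-length trend removed. Without knockout Heavy library 1, 7 members were called lower, whereas leaving out any 1 of 12 other libraries, knockout Heavy libraries 2 and 3 and all 3 control Heavy libraries among them, left none called. The count over all genes moved as well, from 7 to 2011 genes called in either direction over the fits that left out 1 library. With all libraries it was 503, so the 2.52% given above does not apply to those fits.

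**Figure D4:**
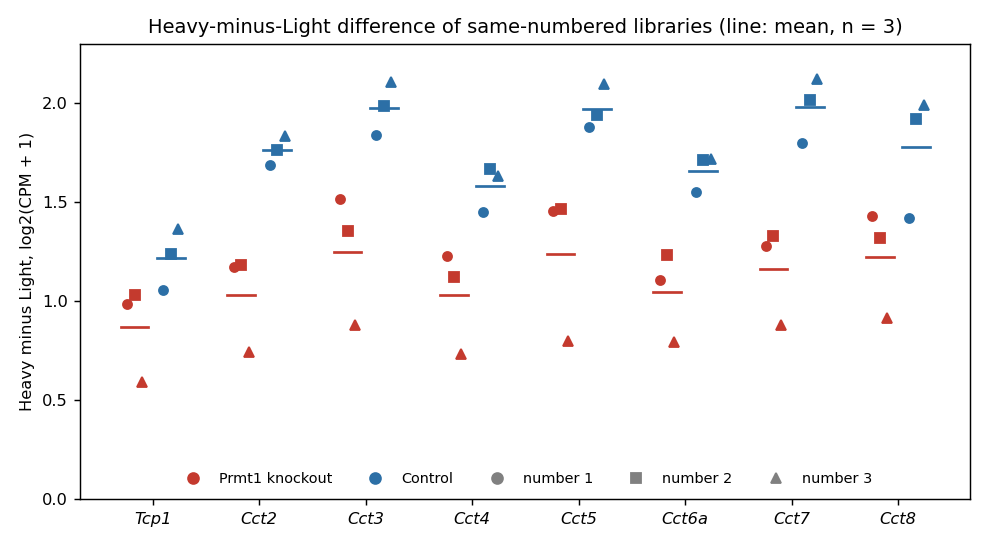
Heavy-minus-Light difference, in log2(CPM + 1), of same-numbered libraries for each CCT message, with Prmt1 knockout in red left of control in blue, a marker shape for each library number and a line for the mean (n = 3). Knockout differences run from 0.59 to 1.52 and control differences from 1.06 to 2.13, and the 2 sets overlap for Cct8 alone.

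Set against Total RNA, the knockout-versus-control change was larger in Light RNA for all 8 messages, by 0.45 for Tcp1 to 0.92 for Cct3 on the log2 scale (median 0.76). None passed, with a lowest adjusted p of 0.0666 shared by Cct2, Cct3 and Cct7, and no gene of the whole table passed either (0.00%), although 7 members and 2851 genes had an unadjusted p under 0.05 with limma. In fits with only the libraries compared, 7 members and 1143 genes passed, and with voom the count was 0 for members and genes alike. The change in Heavy RNA differed from that in Total RNA by -0.03 to 0.19, with a median of 0.09. These signs were not stable. Every positive value turned negative without the knockout libraries numbered 1, as did those of Tcp1, Cct2, Cct4, Cct5 and Cct7 with voom (median -0.03). The negative value, of Cct6a, turned positive after quantile normalization. None passed in that comparison, none had an unadjusted p under 0.05, and 0.0114% of all genes were called. These differences share libraries with each other and with the comparisons above, so they are not independent of them.

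Several members overlap another gene, and the sources used here do not name the strand setting of the counting, so reads from the overlaps cannot be assigned with certainty. Tcp1 overlaps the opposite-strand genes Mrpl18 by 645 nt and Acat3 by 1255 nt, Cct6a overlaps Psph by 452 nt, Cct7 overlaps Pradc1 by 457 nt and Cct8 overlaps Usp16 by 192 nt. The members were the more abundant of each pair: in Light RNA, Mrpl18, a mitochondrial ribosomal protein gene, averaged 97.7 ± 15.7 CPM in knockout cells and 184 ± 18.9 CPM in control cells. Pradc1, which starts beside Cct7, averaged 18.8 ± 2.69 CPM in knockout cells and 36.3 ± 4.61 CPM in control cells. Both fell in Light RNA (log2 changes -0.92 and -0.91, adjusted p = 0.000667 and 0.000571), where Cct7 rose and Tcp1 did not pass. Psph, a serine synthesis enzyme gene, rose in Light RNA with Cct6a (0.66, adjusted p = 0.00667). Acat3 (0.12) and Usp16 (-0.03) did not pass. The pseudogenes Cct3-ps1 and Tcp1-ps1 have no row of their own in the table.

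The messages of prefoldin, which passes clients to CCT, were tested alongside. Of the 6 prefoldin subunits, 4 fell and none rose in Light RNA, where 12.7% of all genes were called lower: Pfdn5 (log2 change -0.95, adjusted p = 0.000707), Pfdn4 (-0.81), Pfdn2 (-0.56) and Pfdn6 (-0.50). The median of the 6 was -0.53, and Pfdn1 (-0.13) and Vbp1 (-0.38) did not pass; 4 fell after quantile normalization and 5 with voom. Pfdn5 had a mean of 251 ± 27.1 CPM in Light RNA of knockout cells and 484 ± 22.1 CPM in control cells. In Total RNA none of the 6 passed (median -0.28), and in Heavy RNA Pfdn5 (-0.67) and Pfdn6 (-0.48) fell. Of all 17515 genes tested, 28.9% were called in either direction in Heavy RNA, 1819 of them lower, and 26.4% were called in Total RNA. Prefoldin messages also had the opposite polysome profile to CCT, since 5 of 6 were called lower in Heavy than in Light RNA, with medians of -1.26 in knockout cells and -1.58 in control cells, against 26.8% of all genes called lower in knockout cells and 27.1% in control cells. Vbp1, another prefoldin subunit, had differences of 0.02 in both. The coding lengths of prefoldin and CCT messages were not compared, and the cause of their opposite profiles was not tested.

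Of the phosducin-like cofactors, 3 of the 4 listed were in the table. Pdcl rose in Light RNA (0.45, adjusted p = 0.0497), and in Heavy RNA Pdcl3 (-0.47) and Txndc9 (-0.36) fell, with none called in Total RNA. All 3 were called higher in Heavy than in Light RNA in control cells, and 2 of 3 in knockout cells. Over all genes, 23.6% were called higher in control cells and 16.8% in knockout cells. The 6 tubulin cofactors assemble the tubulin dimer after CCT. In Light RNA Tbcd (1.00) and Tbcc (0.35) rose, while Tbca (-0.76) and Arl2 (-0.57) fell. In Heavy RNA Tbcd (0.88) rose and Arl2 (-0.52) fell, and none of the 6 was called in Total RNA. The shares of all genes tested, for both lists, were 26.8% called higher and 12.7% called lower in Light RNA. In either direction, 28.9% of all genes were called in Heavy RNA and 26.4% in Total RNA. Pdcl and Tbcc lost their calls in Light RNA under both of the other scalings.

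Among the 19 actins and tubulins, the clients that depend on CCT, 7 rose and 3 fell in Light RNA, with a median log2 change of 0.17, where 26.8% of all genes were called higher and 12.7% lower. The calls of Tuba4a and Tubb4a, both among the 7, were lost under both other scalings. Tubb3, a neuronal beta-tubulin, rose by 2.24 on the log2 scale and Tubb4b by 0.85, while the smooth muscle actins Acta2 (-0.996) and Actg2 (-0.74) fell. In Total RNA 2 rose and 7 fell (median -0.22), led by Acta2 (-1.58), Actg2 (-1.54), Actg1 (-1.19) and Tubg1 (-0.73) among those that fell, with Tubb3 (1.67) and Tubb4a (0.23) rising, the call of Tubb4a being lost under both other scalings. Over all genes tested, 10.3% were called lower in Total RNA and 26.4% in either direction. In Heavy RNA 1 rose and 6 fell (median -0.21), again with Acta2 (-1.82), Actg2 (-1.86) and Tubg1 (-0.90) falling and Tubb3 (1.69) rising. Of all 17515 genes tested, 3242 were called higher and 1819 lower in Heavy RNA. The Heavy-minus-Light difference was lower in knockout cells for 5 of 19, where 2.52% of all genes were called lower. These were Actg2 (-1.12), Actb (-0.89), Acta2 (-0.82), Tubb6 (-0.67) and Tubg1 (-0.60), and the median over the 19 was -0.59. Of these 5, Actb and Acta2 were also called after quantile normalization and none with voom. In knockout cells 16 of 19 were called higher and 1 lower in Heavy than in Light RNA (median 0.82), and in control cells 17 of 19 were called higher (median 1.43). The 1 called lower was Tubb4a, which did not exceed 0.53 CPM in any library, and its call was lost under both other scalings. Those of Actb and Actg1 in knockout cells were lost after quantile normalization. Over all genes, 16.8% were called higher and 26.8% lower in knockout cells, and 23.6% were called higher in control cells. Actb, cytoplasmic beta-actin, had 4617, 4229.8 and 4623 CPM in Light RNA of knockout cells and 3151, 2531 and 2807 CPM in control cells, with no overlap.

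Of 14 other clients, 6 rose and 3 fell in Light RNA (median 0.21), against 5 and 2 after quantile normalization (median 0.21) and 3 and 3 with voom (median -0.01). Over all genes tested, 26.8% were called higher and 12.7% lower in Light RNA as deposited. Of the same 17515 genes, 26.4% were called in either direction in Total RNA, and 3242 were called higher and 1819 lower in Heavy RNA. Gnb5, a G protein beta subunit (0.93), Stat3, a transcription factor (1.42), and Mlst8, an mTOR complex subunit (0.64), rose, and Wrap53, a telomerase holoenzyme protein (-0.49), fell. In Total RNA Gnb5 (0.79) and Stat3 (0.65) rose and Wrap53 (-0.89) fell, and in Heavy RNA Stat3 (1.34), Gnb5 (0.57), Rptor (0.47) and Mlst8 (0.35) rose and Wrap53 (-0.92), Vhl (-0.38) and Fzr1 (-0.34) fell, of which Mlst8 and Rptor lost their calls under both other scalings and Fzr1 after quantile normalization. Of 6 other chaperonin genes, Bbs12 rose in all 3 fractions (0.45 in Total, 0.61 in Light and 0.67 in Heavy RNA), whereas Hspe1, the mitochondrial co-chaperonin, fell in Light (-0.98) and Heavy RNA (-0.66), and Mkks fell in Light RNA (-0.42). Cct6b, the paralog of Cct6a best known from testis, did not exceed 0.31 CPM in any library. Of 11 Hsp70 and Hsp90 system genes, 4 rose in Light RNA, Hsp90ab1 (0.98), Hspa4 (0.78), Stip1 (0.74) and Hspa8 (0.55, a call lost with voom), and Hsf1, the heat-shock transcription factor, fell (-0.73). Hsf1 also fell in Total (-0.40) and Heavy RNA (-0.70). In Total RNA no other gene of the 11 was called, and in Heavy RNA Hsp90ab1 (0.62) and Hsp90aa1 (0.52) rose and Dnajb1 (-0.31) fell. Hsp90aa1 lost its call under both other scalings, Hsp90ab1 with voom and Dnajb1 after quantile normalization.

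**Figure D5:**
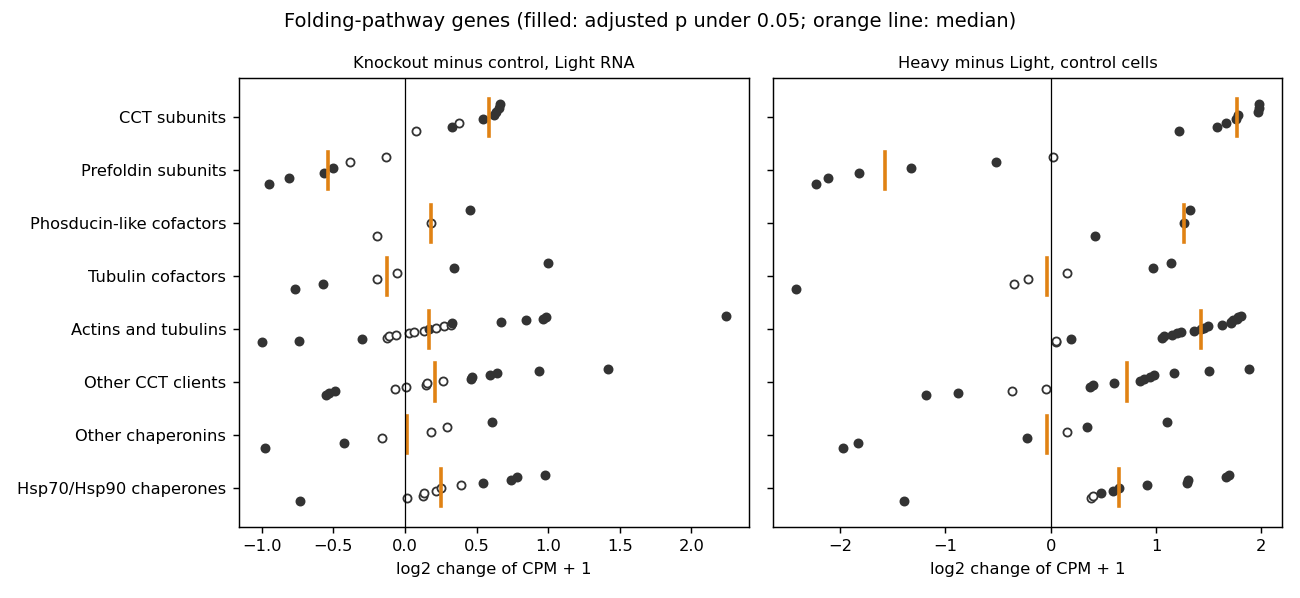
Log2 change of each gene of the CCT folding pathway, by group: knockout minus control in Light RNA on the left, and Heavy minus Light in control cells on the right, with filled points for an adjusted p under 0.05 and an orange line for the group median. In Light RNA the CCT median is 0.58 and the prefoldin median -0.53, and in control cells the Heavy-minus-Light medians are 1.77 and -1.58.

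Each member followed the mean of the other 7 closely across the 18 libraries, with a Pearson correlation of 0.947 for Tcp1, the lowest, and 0.994 for Cct2 and Cct5, the highest. These correlations are descriptions, since the libraries share fraction and genotype. Among 9615 other genes averaging 5 CPM or more, the 10 whose profile over the 18 libraries was most like the mean of the 8 were Pgm1, Mpp1, Fam98b, Acad9, Maoa, Dcaf13, Hnrnpk, St13, Tada2a and Psmd12, with correlations of 0.987 to 0.992. Their log2 changes ran from 0.20 (Tada2a) to 0.62 (Mpp1) in Light RNA, from -0.40 (Acad9) to -0.00038 (Psmd12) in Total RNA and from -0.30 (Acad9) to 0.03 (Fam98b) in Heavy RNA. The 10 were picked on these same libraries, so changes like those of the members follow from the choice and are no separate evidence.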

How the data were processed

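The submitters' processing notes list STAR, edgeR and the build mm10 without versions, and the sources used here name no read counter, annotation or strand setting. The table deposited by the authors holds log2(CPM + 1) for 19862 genes in 18 libraries. With the log2 undone, 100% of values were whole multiples of 1 read, to within 0.1 reads, at depths of 32.3 to 57.9 M reads per library. The labels say TruSeq v2 libraries of RNA from cells lysed with cycloheximide, a block on translation elongation, and spun on sucrose gradients.

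Genes with reads in 3 or more libraries, 17515 in all, were tested with limma 3.58.1 (trended, robust variances; R 4.3.3) on the log2 values, in 1 fit of the 6 groups, and p-values were adjusted over all of them by Benjamini-Hochberg and called under 0.05. A log2 change is of CPM + 1. Medians of all genes use those with a mean of at least 1 CPM. Figures and summaries used Python 3.11.15, pandas 2.3.3 and matplotlib 3.10.9.

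The members and the gene lists (prefoldin, cofactors, tubulin cofactors, actins and tubulins, other clients, other chaperonins, Hsp70 and Hsp90 system, and markers) were chosen with earlier results of these data known. Named genes are all 8 members, Prmt1, up to 4 called genes of each list with the lowest p in the knockout comparison described and those that account for a count of 5 or fewer. Actb and the genes that overlap a member were added after their values were seen. Gene positions and promoters are from RefSeq (GRCm38.p6), and coding lengths and overlaps are from GENCODE M21, on the same assembly; 2 list genes were matched under older symbols.

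Same-numbered Heavy and Light libraries deviated together within a genotype (correlation of deviations from group means 0.263, 0.565 and 0.641 in knockout cells, 0.368, 0.451 and 0.471 in control cells), so the numbers pair them. They did not pair knockout with control libraries. Replicates differed by far more than counting noise (chi-square per degree of freedom 12.2 to 241), so none was merged. Alternatives were quantile normalization, voom on recovered reads, other filters and a pseudocount of 0.1, limma without trend or robust variances, only the libraries compared, replicate blocks, removal of the coding-length trend, and leaving out libraries.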

Additional observations from a re-analysis of the deposited data

Results flagged for a closer look

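The Heavy-minus-Light difference of Cct2, the beta subunit message, was 1.03 in knockout cells and 1.76 in control cells, and the test of the difference between genotypes passed (-0.732 on the log2 scale, SE 0.18, limma adjusted p = 0.0365). For Cct7, the eta subunit message, the difference was 1.16 in knockout cells and 1.98 in control cells, and the test also passed (-0.817, SE 0.20, adjusted p = 0.0365). Both were lower in 3 of 3 knockout pairs than in any control pair, a pattern not counted over all genes. Both calls were lost after quantile normalization (Cct2 -0.66, adjusted p = 0.1298; Cct7 -0.69, adjusted p = 0.138), with voom (Cct2 -0.68, Cct7 -0.77, adjusted p = 0.139 for both), with only the libraries compared, with the coding-length trend removed and with a block for each Heavy and Light pair. Over the alternatives that leave out a library, the adjusted p ran from 0.00485 to 0.110 for Cct2 and from 0.00738 to 0.112 for Cct7. The 2 share their libraries with each other and with the Light and Heavy changes in the report. The highest Heavy-minus-Light differences over all genes were also smaller in knockout cells, as the report gives. No outlier test was run on groups of 3 libraries, though the knockout libraries numbered 1 deviated most in each fraction, as the report gives.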

How the results depend on the processing

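Called directions did not reverse for any CCT message under any alternative, nor for any called gene of the other pathway lists under quantile normalization or voom. In Light RNA the count of members called higher was 4 to 6 under every alternative. In Total RNA the count of members called lower, 0 as reported, was 1 with voom, with the replicate block within genotype, with the coding-length trend removed and without the knockout libraries numbered 1, and 3 with only the libraries compared; leaving out 1 library gave 0 to 1 (1 without knockout Heavy library 1 or 3). In Heavy RNA it was 2 with voom, 1 with the length trend removed and 3 without the knockout libraries numbered 1, and 0 to 2 with 1 library left out (2 without knockout Heavy library 1); the number of genes called was 2976 with only the libraries compared, against 5061.

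For the Heavy-minus-Light difference, 2 members were called as reported, 4 without trend or robust variances, 6 without the knockout libraries numbered 1, 1 with the block across genotypes, and 0 with quantile normalization, voom, only the libraries compared, the length trend removed and the replicate block on Heavy and Light libraries alone (chosen after seeing the data); leaving out 1 library gave 0 to 7 (0 for control Heavy 1, 2 and 3, control Light 2 and 3, control Total 2 and 3, knockout Heavy 2 and 3, knockout Light 1 and 3 and knockout Total 2; 1 for control Light 1; 7 for knockout Heavy 1). Over all genes the counts, 503 as reported, were 152 (quantile), 15 (voom), 785 (no trend or robust variances), 8 (only the libraries compared), 27 (length trend removed), 1872 (without the knockout libraries numbered 1) and 10 (the added replicate block), and 7 to 2011 with 1 library left out. For Heavy minus Total, 2 genes were called as reported, 0 with voom, a mean of at least 1 CPM or a pseudocount of 0.1, 1 with no filter or either replicate block, and 4 without the knockout libraries numbered 1; leaving out 1 library gave 1 to 9 genes and no member.

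For Light minus Total, 0 members and 0 genes were called as reported. The counts were 0 and 17 with quantile normalization, 3 and 347 with a mean of at least 1 CPM, 3 and 548 without trend or robust variances, 7 and 1143 with only the libraries compared, 3 and 785 without the knockout libraries numbered 1, and 0 to 6 and 0 to 1405 with 1 library left out (6 members without knockout Heavy library 1 and 5 without knockout Heavy library 3). The highest over lowest level per kb in control Total RNA was 2.62, and 2.64 without division by length. The share of called genes that were higher was 60.9% in Total and 64.1% in Heavy RNA as deposited, 48.9% and 49.1% after quantile normalization, and 54.5% and 44.8% with voom. The block changed no other member call than those named here and in the report. The cause of these changes was not tested. Depth did not limit the members, which had at least 5227 reads in every library.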
